A study of Homo sapiens with 16 samples.

Results

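Of 68046 merged H3K9ac regions in H69 cells, 33894 were called in all 4 H3K9ac libraries, and 2304 of these (6.80%) were touched by no H3K27ac peak of any library. These 2304 regions are the members described here. They were found by merging the H3K9ac peaks of 4 libraries on chromosomes 1 to 22 and X wherever they overlapped by at least 1 bp, keeping regions called in every library, and removing each region that shared 1 bp or more with an H3K27ac peak. The members were thus selected on the H3K9ac and H3K27ac calls themselves, and values of these marks are given as a description with no test. Of the other constant regions, 2141 were touched by H3K27ac in 1 to 3 libraries and 29449 in all 4.

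H69 cells are cholangiocytes, the epithelium of the bile duct wall, from human liver and immortalized by a viral oncogene. They received vehicle, whose makeup the labels leave out, or recombinant human TGF-beta at 10 ng/ml, each for 16 h. Chromatin immunoprecipitation with sequencing was carried out for H3K9ac, H3K27ac and SMAD3, the transcription factor that TGF-beta receptors activate. For each target there were 2 libraries with vehicle and 2 with TGF-beta. The libraries of the marks carry replicate numbers 1 and 2 and those of SMAD3 carry 4 and 5, and the labels do not say whether these came from separate cultures, so p-values measure only the spread between these libraries.

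Acetylation of lysines on the tail of histone H3 loosens chromatin and is read by bromodomain proteins. H3K9ac is written mainly by the GCN5 and PCAF acetyltransferases and is strongest at the promoters of active genes, whereas H3K27ac is written by CBP and p300 and marks both active promoters and active enhancers. The marks occur together at most active promoters, which makes regions called for only H3K9ac uncommon.

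The files list peaks without read counts, so depth is unknown and the length of a region inside peaks stands in for signal. H3K9ac peaks covered 36.7 to 44.1 Mb per library, H3K27ac peaks 54.7 to 65.1 Mb, and SMAD3 peaks 11.2 and 14.5 Mb with vehicle against 19.6 and 19.6 Mb with TGF-beta. A region whose H3K27ac signal was weak can therefore be missed by the caller and counted as a member, and a low signal cannot be told apart from none. The labelled cell type was checked at its markers: 10 of 14 cholangiocyte genes, among them KRT7, KRT19 and EPCAM, had a constant H3K9ac region within 1 kb of a gene end, while CFTR, AQP1 and SPP1 were among those without one. Of genes that mark other cells, 4 of 8 hepatocyte genes, 4 of 8 mesenchymal and endothelial genes and 5 of 8 leukocyte genes also had such a region, so these calls alone do not set cholangiocytes apart from the other lists.

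Sequences are shown for 6 leading members that hold an annotated start, because the letters of such members are compared with other promoters next. The first 4 are the members of highest H3K9ac peak rank, and the next 2 among the longest, whose RefSeq promoter window lay wholly inside the member. Each line gives the 250 bases before an annotated start, 5′ to 3′ along the gene, from RefSeq on GRCh38.p14. Capitals mark GGGCGG on either strand, the box bound by SP and KLF factors, and GGCGCC, a GC-rich sequence that SMAD3 can bind; neighbouring matches may overlap.
CADM4, chr19:43639851-43640100, minus strand: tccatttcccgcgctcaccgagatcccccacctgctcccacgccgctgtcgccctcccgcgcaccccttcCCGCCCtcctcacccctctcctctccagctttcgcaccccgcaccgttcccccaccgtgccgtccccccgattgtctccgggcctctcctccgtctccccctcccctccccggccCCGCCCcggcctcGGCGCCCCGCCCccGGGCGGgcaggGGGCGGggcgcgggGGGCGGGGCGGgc
FGD3, chr9:92947273-92947522, plus strand: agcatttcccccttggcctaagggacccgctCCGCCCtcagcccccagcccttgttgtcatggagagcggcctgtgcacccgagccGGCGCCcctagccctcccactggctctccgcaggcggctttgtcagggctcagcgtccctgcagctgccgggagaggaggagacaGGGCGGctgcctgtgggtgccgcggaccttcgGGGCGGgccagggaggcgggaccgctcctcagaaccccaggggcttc
SMARCD3, chr7:151276735-151276984, minus strand: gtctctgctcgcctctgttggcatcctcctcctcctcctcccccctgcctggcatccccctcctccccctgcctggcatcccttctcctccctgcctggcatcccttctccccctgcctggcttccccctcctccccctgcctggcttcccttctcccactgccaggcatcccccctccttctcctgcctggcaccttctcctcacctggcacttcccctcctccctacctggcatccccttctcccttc
IRF5, chr7:128937677-128937926, plus strand: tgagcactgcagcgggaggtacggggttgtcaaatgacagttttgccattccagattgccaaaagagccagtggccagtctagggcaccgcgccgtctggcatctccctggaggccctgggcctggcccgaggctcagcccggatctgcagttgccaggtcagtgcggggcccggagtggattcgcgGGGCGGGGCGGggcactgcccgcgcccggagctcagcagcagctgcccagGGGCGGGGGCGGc
NOL4L, chr20:32585334-32585583, minus strand: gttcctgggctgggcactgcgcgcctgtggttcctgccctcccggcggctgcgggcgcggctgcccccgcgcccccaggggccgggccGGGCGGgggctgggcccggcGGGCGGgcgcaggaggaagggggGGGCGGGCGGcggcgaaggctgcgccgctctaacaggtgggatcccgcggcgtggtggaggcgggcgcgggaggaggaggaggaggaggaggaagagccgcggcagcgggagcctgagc
ICAM5, chr19:10289702-10289951, plus strand: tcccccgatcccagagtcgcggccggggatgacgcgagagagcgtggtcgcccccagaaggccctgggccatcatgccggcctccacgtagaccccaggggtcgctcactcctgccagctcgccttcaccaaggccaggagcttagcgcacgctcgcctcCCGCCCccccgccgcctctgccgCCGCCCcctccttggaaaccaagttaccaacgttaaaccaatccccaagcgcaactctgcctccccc
The CADM4 stretch held 7 GGGCGG boxes and 30 CpG dinucleotides, and the NOL4L stretch 4 boxes and 31 CpGs. SMARCD3 differed from the other 5: its stretch held no GGGCGG box and 1 CpG, although G and C made up 67.2% of its bases. CADM4 and FGD3 each held 1 GGCGCC. The remaining 4 held none in these 250 bases.

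Promoter windows inside members were richer in G, C and CpG than those inside constant regions with H3K27ac. The RefSeq table holds 22012 windows, each of 250 bases before and 50 after a start, and 281 windows of 249 genes lay wholly inside a member. Their median GC share was 73.0%, against 67.7% for the 6223 windows inside constant regions touched by H3K27ac in any library, 71.3% for the 190 windows inside those touched in 1 to 3 libraries, and 51.7% for the 7441 windows that no H3K9ac or H3K27ac peak touched. The median number of CpGs per window was 33 in members, 31 with H3K27ac in 1 to 3 libraries, 27 with H3K27ac in any library and 5 in windows without either mark. A window of this length has to fit inside the region, so short members are left out of these values.

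Of 12 short motifs searched on both strands, GGGCGG and GGCGCC stood in a larger share of member windows than of windows with H3K27ac in any library, and the ETS letters in a smaller share. GGGCGG was found in 85.4% of member windows, in 76.3% of windows with H3K27ac in 1 to 3 libraries, in 69.9% with H3K27ac in any library and in 56.3% of all promoters. GGCGCC stood in 44.5%, 34.7%, 34.4% and 24.3% of the same windows, and both motifs are themselves made of G and C. The motif CCGGAAG, the core recognised by ETS factors such as GABPA, was found in 6.05% of member windows against 15.4% with H3K27ac in any library and 12.8% of all, but windows with H3K27ac in 1 to 3 libraries had 5.26%, so the low share was not particular to members. AAGATGGCG, the YY1 letters, was found in 0.712% of member windows, 2.97% with H3K27ac in any library and 1.05% with H3K27ac in 1 to 3 libraries. CCAAT, bound by NF-Y, stood in 15.3%, 20.8% and 16.8% of the same windows. These low shares were thus not particular to members either. TATAAA was found in 3.20% of member windows, in 4.58% with H3K27ac in any library and in 8.42% with H3K27ac in 1 to 3 libraries. In windows without either mark its share was 18.0%. CAGACA, which holds the SMAD box, was present in 11.03% of member windows and 12.3% of windows with H3K27ac. The AP-1 letters TGANTCA were present in 3.20% and 4.68%.

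**Figure D1:**
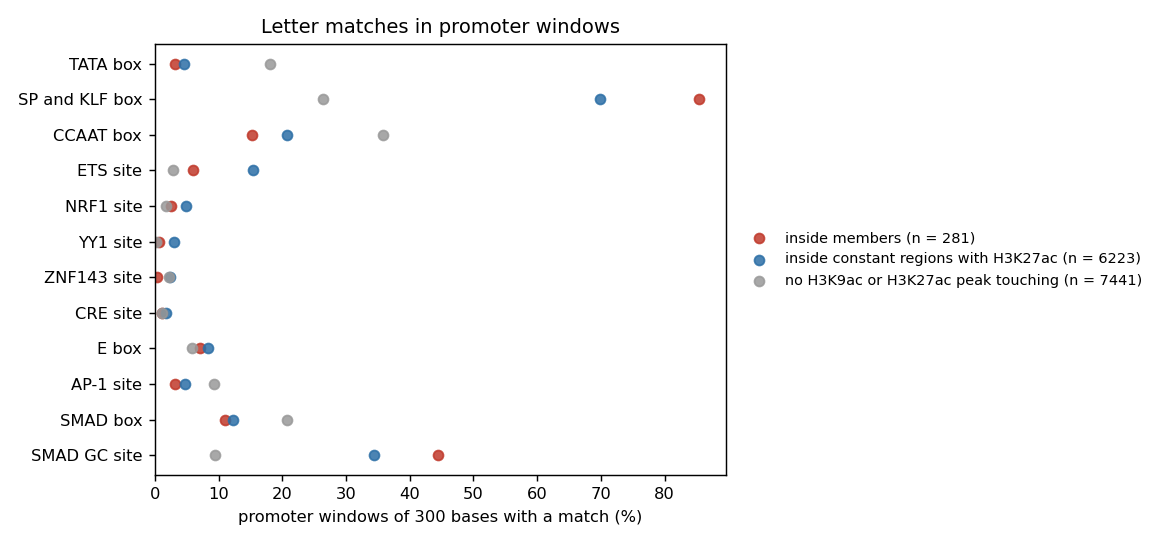
Share of RefSeq promoter windows (x axis, percent) that hold each of 12 motifs (y axis) on either strand, for 281 windows inside members (red), 6223 inside constant H3K9ac regions with H3K27ac (blue) and 7441 touched by neither mark (grey). The SP and KLF box stands at 85.4% in members and 69.9% in regions with H3K27ac, and the ETS site at 6.05% and 15.4%.

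Members were short. Their median length was 604 bp, from 156 to 2976 bp, and they covered 1.61 Mb in all. Constant regions touched by H3K27ac in 1 to 3 libraries had a median of 567 bp, and those touched in all 4 libraries 1098 bp. The regions touched in 1 to 3 libraries were thus close to the members in length and serve below as the nearest comparison. Within a library the members held middling peaks: the median percentile of a member's peak score was 51.1 and 45.9 in vehicle libraries 1 and 2, and 40.7 and 46.5 in TGF-beta libraries 1 and 2. The same medians were 57.2, 51.4, 47.1 and 51.8 for regions with H3K27ac in 1 to 3 libraries, and lay between 68.6 and 73.1 for those with H3K27ac in any library.

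About as many members as other constant regions lay at genes. Gene ends were counted by distance: a region counted when it came within 1 kb of either end of a protein-coding gene, since the table of all genes gives no strand. This held for 1094 members (47.5%), against 43.4% of regions with H3K27ac in 1 to 3 libraries and 51.2% with H3K27ac in any library, while all merged H3K9ac regions had 31.4%. Of the remaining members, 539 (23.4%) lay inside a gene and 671 (29.1%) outside genes. A member counted as inside a gene can still hold an annotated start away from the gene's ends, as at CADM4. The count outside includes 160 members with no protein-coding gene within 50 kb. The 4 farthest from a gene were regions of 233, 670, 253 and 230 bp on chromosomes 22, 20, 5 and 9. An end of a long noncoding RNA gene lay within 1 kb of 18.1% of members and of 18.5% of constant regions with H3K27ac. ARF3, a small GTPase of vesicle traffic, and KMT2D, a histone methyltransferase, both on chromosome 12, had the most members within 50 kb, with 7 each. DNASE2, a lysosomal nuclease, KLF1, the erythroid transcription factor, and MAST1 followed on chromosome 19 with 6 each. On each of these chromosomes the windows of 50 kb overlap, so 1 member can count for several genes.

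Members near genes were centred close to the start site. The promoter table has strand but no entry on chromosome 8, so these values use the 2198 members elsewhere. An annotated start lay inside 444 of them (20.2%), against 13.6% of regions with H3K27ac in 1 to 3 libraries and 27.7% with H3K27ac in any. Among the 919 members centred within 2 kb of a start, the median centre lay 174 bp downstream of it, with the middle of the distribution from -201 to 386.5 bp (quartiles). The 13936 regions with H3K27ac in all 4 libraries were centred 331 bp downstream, with quartiles of -374 and 688 bp. Regions with H3K27ac in 1 to 3 libraries had a peak on each side of the start and few centres next to it. In members the fullest bin was 200 to 400 bp downstream, with 9.65% of all members off chromosome 8.

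**Figure D2:**
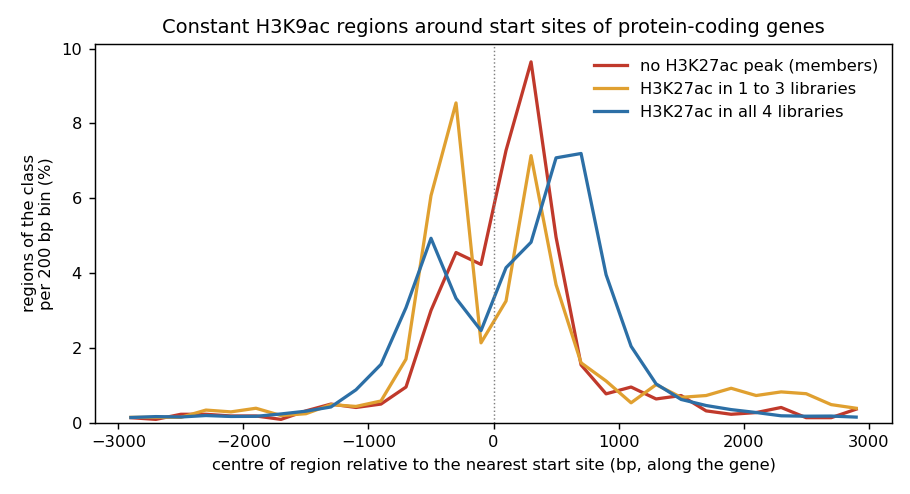
Position of region centres relative to the nearest annotated start of a protein-coding gene (x axis, bp along the gene) as the percent of the regions of a class in each 200 bp bin (y axis). Members (red) peak at 200 to 400 bp downstream, where 9.65% of them lie, while regions with H3K27ac in all 4 libraries (blue) spread farther out on both sides and are centred 331 bp downstream at the median.

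H3K27ac was mostly far away. The median distance from a member to the nearest H3K27ac peak of any library was 16216.5 bp, with quartiles of 3133.5 and 48841.8 bp. In number, 428 members (18.6%) had such a peak within 1 kb, 492 (21.4%) at 1 to 10 kb, 819 (35.5%) at 10 to 50 kb and 565 (24.5%) beyond 50 kb. Vehicle libraries 1 and 2 had no H3K27ac within 10 kb of 67.4% and 67.1% of members, and TGF-beta libraries 1 and 2 none near 64.6% and 64.7%. At the edge of the definition, the member inside ECHS1, a mitochondrial fatty acid oxidation gene, abutted an H3K27ac peak, and the member at SLC12A7, a potassium chloride cotransporter, lay 24 bp from one and had 1918 and 1729 bp inside H3K9ac peaks with vehicle against 509 and 545 bp with TGF-beta. The third nearest, at LOC124902392, lay 34 bp away. On the other side of the edge, the constant regions at STXBP5, ZNF205 and RAB1B were left out because H3K27ac peaks overlapped them by 14, 67 and 84 bp, summed over libraries.

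The members of highest peak rank stood at or near genes of several kinds. CADM4, a cell adhesion molecule of the immunoglobulin family, had a member at chr19:43638451-43640802 with 2240 and 2002 bp inside H3K9ac peaks in vehicle libraries 1 and 2, and 1748 and 1721 bp in TGF-beta libraries 1 and 2. Both TGF-beta values lay below both vehicle values. FGD3, a guanine nucleotide exchange factor, had 651, 665, 637 and 663 bp in the same order, nearly equal in all 4 libraries. SMARCD3, a subunit of the SWI/SNF chromatin remodeller, had 1366, 1102, 839 and 1355 bp, with TGF-beta library 1 the lowest and the other TGF-beta library within the vehicle range. IRF5, a transcription factor of the interferon response, had 1865, 1754, 1510 and 1675 bp, so that vehicle and TGF-beta did not overlap there either. The members at C1QTNF2, a secreted C1q-domain protein, and RAMP2, a partner of the calcitonin-like receptor, were at gene ends, as were those at FGD3, SMARCD3 and IRF5. The CADM4 member lay inside the gene, 1181 bp from an end, but held the annotated start whose sequence is shown above. The members nearest MAP3K9 and ARHGEF1 lay outside these genes.

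The longest members stood at NOL4L, MYCN, ICAM5, DNAJC22, TGFBR3L and SRRM3. The NOL4L member had 2676 and 2513 bp with vehicle and 2585 and 2930 bp with TGF-beta. MYCN, a transcription factor of the MYC family, had 2366, 2627, 2620 and 2714 bp, and ICAM5, an adhesion molecule known from neurons, had 2498, 2502, 2352 and 2485 bp. The treatments overlapped at NOL4L and MYCN, and both TGF-beta values lay just below both vehicle values at ICAM5. SRRM3, a splicing factor of neural microexons, had 1500 and 1346 bp with vehicle and 2577 and 2787 bp with TGF-beta. It was the one of these 6 whose TGF-beta values both lay above the vehicle values. DNAJC22, a J-domain cochaperone, went the other way, with 2699 and 2468 bp against 2023 and 2377 bp, as did TGFBR3L, a relative of the betaglycan coreceptor, with 2429 and 2354 bp against 2165 and 2349 bp.

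**Figure D3:**
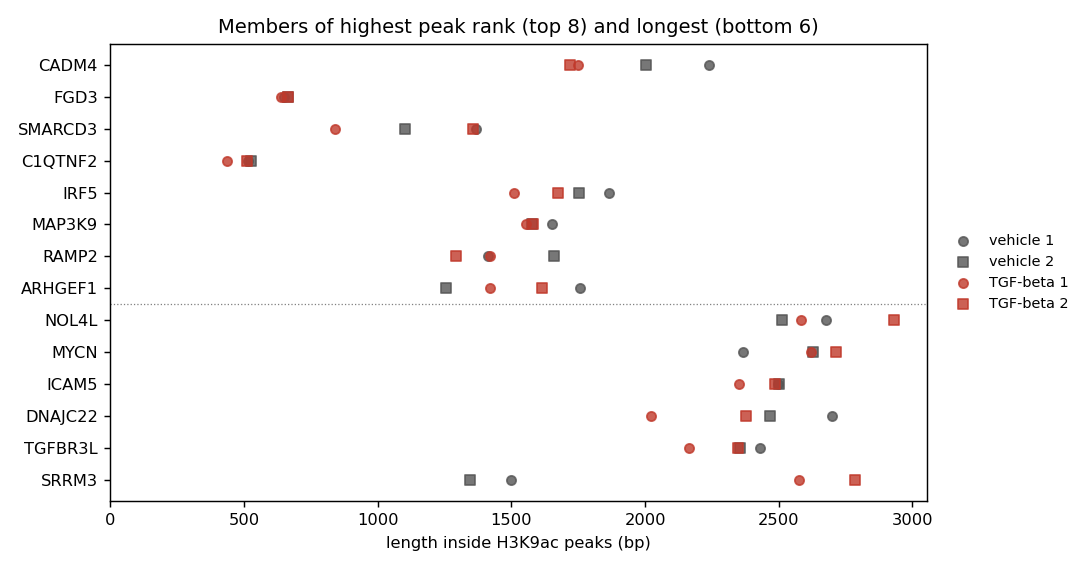
Length inside H3K9ac peaks (x axis, bp) of the 8 members of highest mean peak rank and, below the dotted line, the 6 longest members (y axis), with 1 point per library; vehicle libraries are grey, TGF-beta libraries red, circles are replicate 1 and squares replicate 2. SRRM3 separates by treatment with longer peaks after TGF-beta, CADM4 and IRF5 with shorter ones, and FGD3 shows almost no spread.

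The share of members whose H3K9ac length separated by treatment was near that of all constant regions. The median length per member was 489.5 and 437.5 bp in vehicle libraries 1 and 2, and 360 and 460.5 bp in TGF-beta libraries 1 and 2. TGF-beta library 1 was the lowest, and TGF-beta library 2 lay between the vehicle libraries. Per the file headers, TGF-beta library 1 shared sequencing lane 7 with the vehicle libraries and TGF-beta library 2 was read on lane 8, so lane cannot be told apart from library there. Both TGF-beta libraries were longer than both vehicle libraries in 289 members (12.5%), and over all constant regions this background was 14.4%. Both were shorter in 738 members (32.0%), with a background of 33.3%. The median log2 ratio of TGF-beta to vehicle length was -0.13 in members, -0.12 in regions with H3K27ac in 1 to 3 libraries and -0.06 with H3K27ac in any library.

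Most genes with a member at an end had no constant H3K9ac region with H3K27ac at either end. Of 19974 protein-coding genes, 1089 (5.45%) had a member at an end, and 775 of these (71.2%) had no such region. For 518 of the 1089 genes (47.6%), no H3K27ac peak of any library lay in the gene or within 1 kb of it. By comparison, 12181 genes (61.0%) had a constant H3K9ac region with H3K27ac at an end. Gene lists are described below by their counts beside these shares, with no test. Of 28 lists, 17 held at least 1 gene with a member and 11 held none.

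Lists of genes that every growing cell uses held none or few. None of the 80 cytosolic and 77 mitochondrial ribosomal protein genes, 36 splicing factors, 34 vesicle traffic genes, 29 cell cycle genes and 30 housekeeping genes had a member at an end, and between 97.4% and 100% of each of these lists had a constant H3K9ac region with H3K27ac. The list of 82 respiratory chain genes had 2 with a member, COX6B2 and NDUFB10, and the 48 proteasome genes had 1, PSMA1. The COX6B2 member lay 93 bp from H3K27ac and the NDUFB10 member 183 bp. The PSMA1 member was also at an end of PDE3B, and the COX6B2 member at an end of GARIN5B. Among 557 zinc finger genes, which encode mostly KRAB-type repressors, 7 (1.26%) had a member, and 82.8% had a constant region with H3K27ac. None of the 39 HOX genes had a member, and 2.56% of them had a region with H3K27ac. A single olfactory receptor gene, OR7E24, had one.

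Potassium channels were the pathway list with the largest share. Of 95 genes for pore-forming and auxiliary subunits and their partners, 14 (14.7%) had a member at an end, against 5.45% of all genes, and 19 had a constant region with H3K27ac, a share far under the 61.0% of all genes. All 14 lacked a constant region with H3K27ac at an end, and 7 of them had no H3K27ac peak in the gene or within 1 kb. KCNJ4, an inward rectifier, had 1348 and 1424 bp inside H3K9ac peaks with vehicle and 702 and 1094 bp with TGF-beta, 5137 bp from the nearest H3K27ac peak, and KCNH3, a voltage-gated channel of the EAG family, had 1330, 1130, 831 and 1034 bp. In both genes the 2 TGF-beta libraries were shorter than both vehicle libraries. This was so at 8 of the 14 genes, and at 2, KCNG1 and KCNH1, both were longer, where all constant regions had backgrounds of 33.3% and 14.4%. The KCNH1 member had 247 and 243 bp with vehicle and 488 and 469 bp with TGF-beta. The 14 are not one family: tandem-pore, inward rectifier and voltage-gated channels and the accessory proteins KCNE3 and KCNIP3 are among them.

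Germline and developmental genes came next. Of 30 germline and meiosis genes, 4 (13.3%) had a member: MAEL, of the piRNA pathway, SYCP2, of the synaptonemal complex, STAG3, a meiotic cohesin subunit, and MEIOB, a meiotic recombination factor. MAEL had 831, 889, 739 and 1021 bp, with vehicle values inside the range of TGF-beta values, and lay 98237 bp from H3K27ac. For 3 of the 4, MAEL, SYCP2 and STAG3, no H3K27ac peak lay in the gene or within 1 kb, and their members were also at an end of ILDR2, FAM217B and GPC2. Among 46 developmental transcription factors, 5 (10.9%) had a member, among them LHX4, SIX3, DLX2 and GATA6. The LHX4 member, at a LIM homeobox gene of pituitary development, had 2316 and 2248 bp with vehicle and 1102 and 1199 bp with TGF-beta, the widest gap in length among these 5. Both TGF-beta values were lower there, whereas DLX2, with 397, 509, 375 and 678 bp, overlapped. The members at DLX2 and GATA6 lay within 1 kb of an H3K27ac peak.

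The short lists of cell type markers gave small counts. Of the 14 cholangiocyte genes, 3 (21.4%) had a member and 8 (57.1%) a constant region with H3K27ac at an end, against 5.45% and 61.0% of all genes. SOX9, the transcription factor of the biliary lineage, had 1091 and 990 bp with vehicle and 737 and 875 bp with TGF-beta, 198 bp from H3K27ac. ONECUT1, which acts in bile duct development, had 809, 844, 783 and 901 bp, with no separation by treatment, and no H3K27ac peak in the gene. PROM1, a progenitor surface marker, had 797, 586, 377 and 544 bp, with both TGF-beta values below both vehicle values, as at SOX9. Of the 8 leukocyte genes, CD4 and CD8A (25%) had a member: CD4 shares its region with GPR162, with 1122, 1023, 734 and 1093 bp, and CD8A had 793, 701, 657 and 814 bp. No gene of the hepatocyte or the mesenchymal and endothelial list had one.

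Of 28 TGF-beta and SMAD targets, 26 (92.9%) had a constant region with H3K27ac at an end and 2 had a member. LDLRAD4, an inhibitor of TGF-beta signalling that binds receptor-activated SMADs, had 408 and 406 bp with vehicle and 954 and 1491 bp with TGF-beta, a log2 ratio of 1.59. Vehicle and TGF-beta values were far apart, and the nearest H3K27ac peak lay 224314 bp away although the gene itself held others. BAMBI, a decoy receptor of the same pathway, had 499 and 556 bp with vehicle and 347 and 401 bp with TGF-beta, the reverse order, with H3K27ac at 261 bp. The matrix and collagen list (27 genes) and the epithelial junction list (21 genes) had none.

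**Figure D4:**
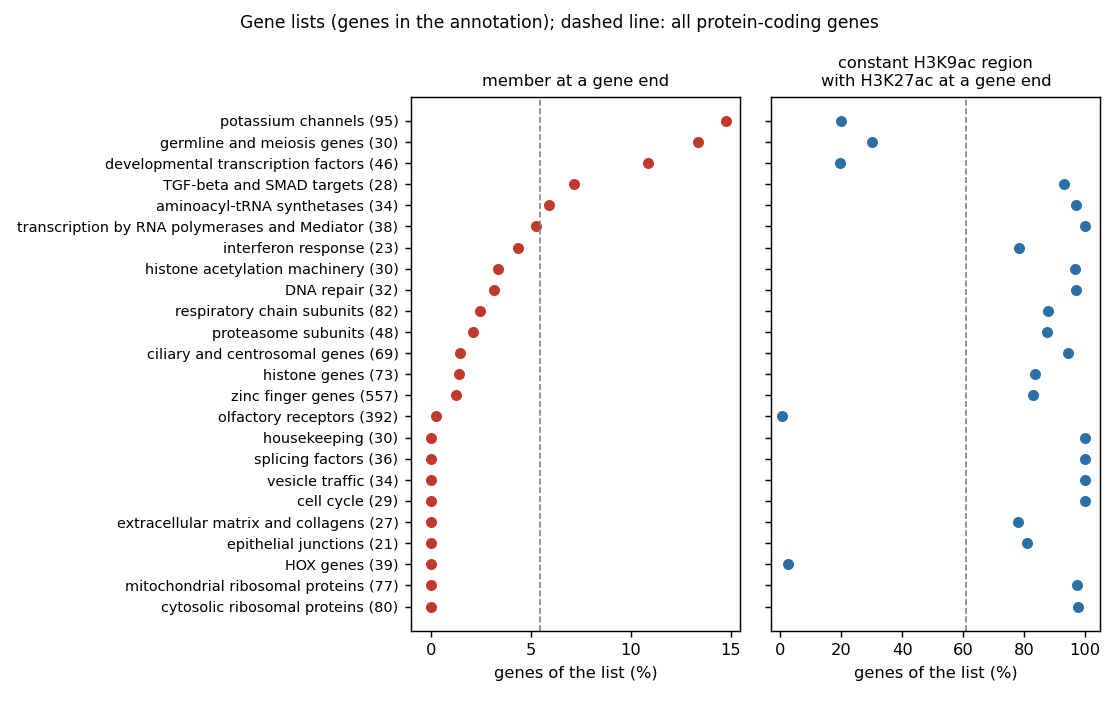
Share of the genes of each list (x axes, percent; number of genes in brackets) with a member at an end (left, red) and with a constant H3K9ac region touched by H3K27ac at an end (right, blue); dashed lines are the shares over all 19974 protein-coding genes, 5.45% and 61.0%. Only lists of 20 or more genes are drawn. Potassium channels lead the left side at 14.7% and lie far under the dashed line on the right, while housekeeping, splicing, vesicle and cell cycle genes are at 0 on the left and 100% on the right.

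Small RNA genes also had members. In number, 18 members (0.781%) lay within 1 kb of 19 microRNA genes, against 0.813% of all merged regions and 1.17% of constant regions with H3K27ac, and 7 hairpins were touched. On chromosome 17, a member that covers the mature miR-132-3p (chr17:2049145-2049953) and one beyond MIR212 (chr17:2050588-2051154) had 611, 702, 613 and 795 bp, and 514, 291, 460 and 534 bp, in vehicle libraries 1 and 2 and TGF-beta libraries 1 and 2. Neither separated the treatments. Their mature products are shown because they share 1 seed (bases 2 to 8, in capitals), from RefSeq on GRCh38.p14, both on the minus strand.
miR-132-3p: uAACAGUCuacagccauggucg
miR-212-3p: uAACAGUCuccagucacggcc
A transfer RNA gene lay within 1 kb of 31 members (1.35%), 35 regions with H3K27ac in 1 to 3 libraries (1.63%) and 239 with H3K27ac in any library (0.757%). Of the 31 members, 18 were on chromosome 6 and 11 on chromosome 1. The tRNA gene itself was overlapped by 2 of the 31, by 4 of the 35 (11.4%) and by 68 of the 239 (28.5%). SMAD3 covered none of the 31 in any of the 4 libraries. It covered 1, 3, 2 and 2 of the 35, and 100, 119, 118 and 129 of the 239, in vehicle libraries 4 and 5 and TGF-beta libraries 4 and 5. Near-identical copies of tRNA genes make the placement of reads there uncertain.

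SMAD3 was not used to choose the members, and its peaks covered fewer of them than of any other constant class. SMAD3 peaks overlapped 9.11% and 14.8% of members in vehicle libraries 4 and 5, and 22.4% and 26.8% in TGF-beta libraries 4 and 5. The same libraries covered 25.1%, 34.4%, 43.2% and 49.6% of regions with H3K27ac in 1 to 3 libraries, and 59.9%, 64.6%, 70.9% and 72.9% of regions with H3K27ac in any. The gap to regions with H3K27ac in any library was 48.8 ± 2.05 percentage points (SD, n = 4 libraries), and that to regions with H3K27ac in 1 to 3 libraries 19.8 ± 2.84 points. Both gaps had the same sign in 4 of 4 libraries, which gave p = 0.13 in each of the 2 exact two-sided sign-flip permutation tests, the smallest value that 4 libraries allow. Length moved with these shares: members of 300 to 500 bp were covered at 7.31% to 19.2% per library and members over 1500 bp at 18.4% to 59.6%, and regions with H3K27ac in 1 to 3 libraries at 17.5% to 39.0% and 47.7% to 86.8%. The order of the classes was the same in each of these length bands, which were chosen after the data were seen, and in every library. At gene ends the shares of members were 12.2%, 19.01%, 29.0% and 34.2%. Those of regions with H3K27ac in 1 to 3 libraries were 36.0%, 48.5%, 58.1% and 66.2% there. Regions with H3K27ac in any library had 87.0%, 90.6%, 92.3% and 93.7%.

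**Figure D5:**
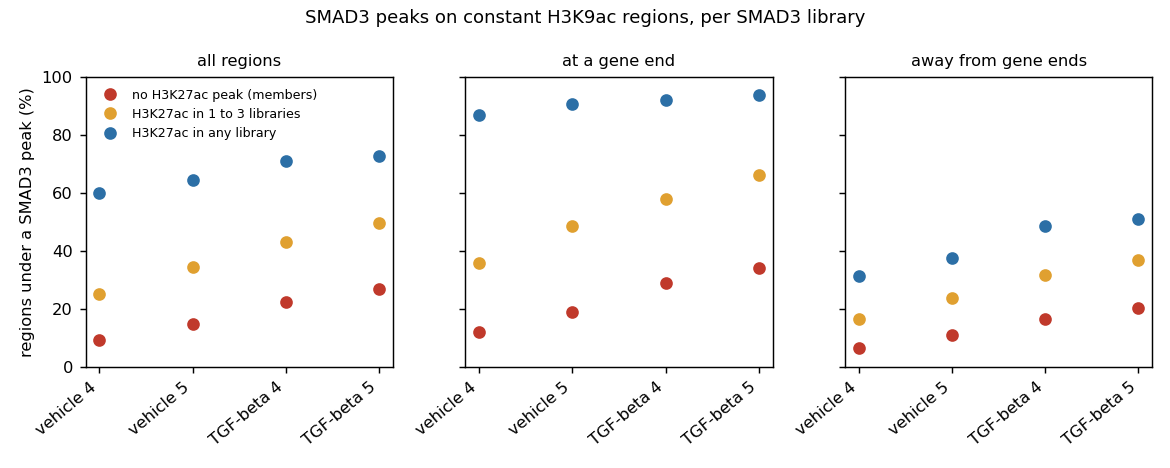
Percent of regions overlapped by a SMAD3 peak (y axis) in each SMAD3 library (x axis), for all regions, those within 1 kb of a gene end and those away from gene ends. In every library and panel the members (red) lie lowest, from 9.11% to 26.8% over all regions, and regions with H3K27ac in any library (blue) highest.

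The share under SMAD3 was higher in both TGF-beta libraries than in both vehicle libraries. The mean was 11.96% ± 4.02 with vehicle and 24.6% ± 3.13 with TGF-beta (SD, n = 2 each), a difference of 12.7 percentage points with p = 0.33 in an exact two-sided permutation test, the smallest possible with 2 against 2. The TGF-beta libraries also held more SMAD3 peaks genome-wide, 33700 and 34413 against 22451 and 25268, and with the same number of top-scored peaks taken from each library the difference was 5.90 points. In number, 181 members (7.86%) had SMAD3 in both libraries after TGF-beta but in no vehicle library, against 4.60% of all merged H3K9ac regions. This pattern was seen at 11.02% of regions with H3K27ac in 1 to 3 libraries and 6.25% with H3K27ac in any library. The reverse pattern was seen at 12 members (0.521%, background 0.254%). It was seen at 0.747% of regions with H3K27ac in 1 to 3 libraries and 0.374% with H3K27ac in any library. Another 159 members were covered in all 4 libraries, and 1565 (67.9%) in none. Coverage by SMAD3 in at least 1 library fell with distance from H3K27ac, from 40.4% of members within 1 kb of a peak to 34.8%, 31.7% and 23.9% at 1 to 10 kb, 10 to 50 kb and beyond 50 kb.

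Changes in SMAD3 at single members were read from a fit over all merged H3K9ac regions. The value was log2 of the length inside SMAD3 peaks in the region with 500 bp on each side, plus 200 bp, which understates changes at short peaks, after each library was centred; centring took out a median shift of 0.23. With limma and Benjamini-Hochberg adjustment, 2143 of 24888 regions tested (8.61%) were higher after TGF-beta and 114 (0.458%) lower at an adjusted p under 0.05. Only 420 members had enough SMAD3 to be tested, 45 of which were higher (10.7%) and 2 lower. The share of tested members that rose is thus near the background. Of the 1884 members not tested, 1366 had no SMAD3 peak in the window in any library. Among the 45, 36 had SMAD3 listed at 0 with vehicle in both libraries and so passed the length filter through the TGF-beta libraries alone. Libraries listed at 0 differ only by the centring, so a region's own spread then comes almost wholly from the other group. Adjusted p-values at such regions can therefore be too small and are given as a description of the fit. Of the 47 called members, 31 lay at a gene end. Windows of members that lie close together can share SMAD3 peaks, so the called members are not all separate SMAD3 changes. Called members at KCNG1 each had 546 and 578 bp in TGF-beta libraries 4 and 5, and those at LIPG each had 586 and 505 bp. The counts rest on few libraries: without vehicle library 4 the fit called 11 members higher, without TGF-beta library 4 it called 16, and without TGF-beta library 5 it called 21. Without vehicle library 5 it called 45.

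NTF4, which encodes a neurotrophin ligand of the TrkB receptor, showed the largest rise among members. SMAD3 was listed at 0 bp in both vehicle libraries and had 1882 and 1645 bp in TGF-beta libraries 4 and 5 (limma adjusted p = 0.00297), in the window of a member at chr19:49063959-49065644. The H3K9ac peaks of this member had 1188 and 831 bp with vehicle and 1600 and 1467 bp with TGF-beta, so H3K9ac and SMAD3 were both longer after TGF-beta there. GAD1, the glutamate decarboxylase that makes GABA, had 1002 and 660 bp of SMAD3 with TGF-beta and was listed at 0 with vehicle (adjusted p = 0.00605). REM2, a small GTPase that acts on calcium channels, had 729 and 896 bp after TGF-beta and was listed at 0 with vehicle (adjusted p = 0.00302). At REM2 the H3K9ac lengths, 382, 300, 312 and 245 bp, did not separate the treatments.

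NXPH4 and COXFA4L2 are near neighbours on chromosome 12, with members at chr12:57216771-57218137 and chr12:57239410-57241123. The NXPH4 member, at a ligand of neurexins, had 1025 and 527 bp of SMAD3 after TGF-beta (adjusted p = 0.0181), and that at COXFA4L2 had 1025 and 499 bp (adjusted p = 0.0228), and both were listed at 0 with vehicle. The shared figure of 1025 bp comes from different peaks. CLDN9, a claudin of tight junctions, had 581 and 886 bp (adjusted p = 0.00546), and HSPA12A, a distant HSP70 relative, 666 and 707 bp (adjusted p = 0.00298), again against 0 with vehicle. The members at HSPA12A and CATSPER1 lay 123 and 114 bp from an H3K27ac peak. CATSPER1, a sperm calcium channel gene, was the one of these 8 with a vehicle value above 0: SMAD3 measured 0 and 185 bp with vehicle and 997 and 945 bp with TGF-beta, a log2 difference of 1.85 ± 0.27 (SE, n = 2 each, limma adjusted p = 0.0194).

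Calls at 5 of these genes were lost when 1 vehicle library was left out, which leaves a single vehicle library that is assumed to vary like the TGF-beta libraries. Without vehicle library 4, the adjusted p rose to 0.0790 at GAD1, 0.146 at NXPH4, 0.164 at COXFA4L2, 0.0709 at CLDN9 and 0.0525 at CATSPER1 in limma. Without vehicle library 5 it was 0.0656, 0.128, 0.144 and 0.0593 at the first 4 of them. At NTF4 the log2 difference lay between 2.96 and 3.17 with 1 library left out, whichever it was. It lay between 1.82 and 2.01 at HSPA12A and between 2.01 and 2.21 at REM2. Neither vehicle library had a SMAD3 peak in these windows, which therefore share the limit given above for regions listed at 0. Leaving a library out thus cannot check the calls at NTF4, HSPA12A and REM2. Other regions fell under the length filter and were not tested: NXPH4 and COXFA4L2 without TGF-beta library 4, CLDN9 without TGF-beta library 5, and, of the falls described next, PAK6 without vehicle library 5 and GLS2 without either vehicle library. With all libraries but without the 500 bp on each side, REM2, HSPA12A and CATSPER1 also fell under the filter. Part of their SMAD3 length thus lay beside the member.

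SMAD3 peaks fell at 2 members, a count in limma that ran from 0 without vehicle library 5, where neither of the 2 passed the length filter, to 12 without TGF-beta library 5 and was 14 with no length filter. PAK6, a p21-activated kinase, had 512 and 601 bp inside SMAD3 peaks in vehicle libraries 4 and 5 and was listed at 0 in both TGF-beta libraries (limma adjusted p = 0.00297). H3K9ac there had 1871 and 1714 bp with vehicle and 1149 and 1359 bp with TGF-beta, also shorter. GLS2, a glutaminase, had 371 and 513 bp of SMAD3 with vehicle and was listed at 0 with TGF-beta (limma adjusted p = 0.00297). Its H3K9ac lengths were 910, 842, 680 and 662 bp. Both regions passed the length filter through the vehicle libraries alone, so their adjusted p-values have the limit given above for regions listed at 0.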

How the data were processed

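Peaks of H3K9ac, H3K27ac and SMAD3 from 12 libraries were used; the 4 input samples were not used here. The submitters' processing notes name hg38, BWA, Picard, bedtools and MACS2; versions, cutoffs and the control are not given in the labels. Each peak list, as the authors deposited it, has a score of −log10 scale, from either p or q values, used here only to rank peaks within a library. The lists hold no counts, so depth is unknown, and a peak's length also depends on depth.

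Peaks were merged and measured with pandas 2.3.3, numpy 2.4.6 and scipy 1.17.1 in Python 3.11.15, and drawn with matplotlib 3.10.9. Genes, promoter windows and microRNAs came from RefSeq on GRCh38.p14, matched by symbol; sequences of 16 named genes were found. A limma fit (version 3.58.1, R 4.3.3) of SMAD3 length ran over all merged H3K9ac regions with a mean of at least 200 bp in the window of 500 bp on each side, as log2 of the length plus 200 bp, with Benjamini-Hochberg adjustment at 0.05. The fit was tested on simulated data with the same spread in every region. That simulation did not model groups listed at 0 in both libraries, so it does not check calls at such regions. Shares were compared over libraries with exact permutation tests. The text names the 8 members of highest mean peak percentile, the 6 longest, up to 3 genes per list, up to 8 called members in each direction with groups that do not overlap, 3 regions on each side of the H3K27ac edge, and those farthest from or most frequent near genes. Other genes of a list, microRNAs and tRNA genes were named after their values were seen. The members and lists were chosen with earlier results of these data known. Alternatives covered the definition of members, windows, filters, pseudocounts, centring, equal peak numbers and each library left out. Some genes that this rule names are not reported here.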

Additional observations from a re-analysis of the deposited data

How the results depend on the processing

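The number of members was 1876 to 2841 under 13 alternatives, each library of the marks left out among them, and potassium channel genes with a member numbered 13 to 17 under the same settings, an alternative added after seeing the data. The share of members at a gene end was 42.2% at 500 bp and 54.9% at 2500 bp, where constant regions with H3K27ac had 48.7% and 55.8%. The share of members under SMAD3, averaged over 4 libraries, was 18.3% and lay between 14.1% and 21.3% under 7 alternatives, and its gaps to both classes with H3K27ac kept their sign in all 7. Regions with longer SMAD3 peaks after TGF-beta numbered 2143 in limma, 1209 with the region alone, 3977 with 2 kb on each side, 1034 with equal numbers of peaks per library, and 571 to 1754 with 1 library left out. The corresponding counts of members were 45, then 22 with the region alone, 81 without a filter, 22 with equal numbers of peaks, and 11 to 45 with 1 library left out. Fewer samples or fewer regions tested enter several of these settings; otherwise the cause was not tested. Regions with shorter SMAD3 peaks numbered 114, and 11 to 273 over the alternatives. The SMAD3 call was also lost at GAD1 with equal numbers of peaks, at REM2 with 2 kb on each side, and at CATSPER1 with a pseudocount of 50 bp or without centring. REM2, HSPA12A and CATSPER1 were not tested with the region alone, nor REM2, CLDN9 and CATSPER1 with equal numbers of peaks. The replicate numbers 4 and 5 form only 2 pairs and carry no label of what they share. Same-numbered SMAD3 libraries deviated together with a correlation of 0.0273. With the number as a replicate block, 2153 regions and 42 members were higher in limma, and the 10 named regions were still called. All of the 10 but CATSPER1 were listed at 0 in both libraries of 1 group, so this fit cannot check their calls. Depth is unknown, so a member may hold H3K27ac too weak to be called.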
